A study of Mus musculus with 12 samples.

Results

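The TGF-beta ligand, receptor and Smad genes are 10 genes chosen by name from the 56735 gene names of the count table. They are the ligand gene Tgfb1, the gene of its cell-surface anchor Lrrc33 (listed in the table under its current symbol, Nrros), the receptor genes Tgfbr1 and Tgfbr2, the Smad genes Smad2, Smad3, Smad4 and Smad7, and the corepressor genes Ski and Skil. All 10 were found in the table, and all 10 were among the 13724 genes that passed the filter on low counts. Expression was measured by bulk RNA-seq in CD206+ sdCAMs, subdural CNS-associated macrophages of leptomeninges and perivascular spaces, that had been sorted from brains without choroid plexuses. All mice carried the genotype Mrc1CreERT2/CreERT2:R26tdT/tdT, that is, an inducible Cre at the Mrc1 locus (the gene of CD206) and a Cre-dependent tdTomato (tdT) reporter, and received tamoxifen 4 weeks before treatment. They were 10 ± 3 weeks old at the first gavage and received vehicle or BLZ945, an inhibitor of the CSF-1 receptor, at 200 mg per kg for 7 days. Cells were sorted 8 weeks after treatment from 4 vehicle mice (vehicle tdT+, 4 libraries) and 4 BLZ945 mice (BLZ945 tdT+ and BLZ945 tdT−, 4 libraries each). The tdT+ gate held cells that carried Mrc1-driven Cre at the time of tamoxifen, and their progeny, whereas the tdT− gate could hold any CD206+ cell without the label. The labels F1, F2, M1 and M2 name the mice. In BLZ945 mice, tdT+ and tdT− libraries that share a label are from 1 mouse, whereas vehicle mice with that label were other animals.

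Latent TGF-beta1 is secreted bound to its propeptide and, on macrophages and microglia, is held at the cell surface by LRRC33 until integrins release it. The active ligand binds TGFBR2, which recruits and phosphorylates TGFBR1. TGFBR1 then phosphorylates SMAD2 and SMAD3, which enter the nucleus with SMAD4, while SMAD7 inhibits the receptor and SKI and SKIL (also called SnoN) repress Smad-driven transcription. In the brain this pathway is best known for keeping microglia in their homeostatic state, so that Tgfbr1 and Tgfbr2 count among the genes on which that state depends.

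The 12 libraries held between 19969308 and 23395058 counts each and detected 14230 to 15866 genes with 1 count or more. Values are given as normalised read counts, that is, counts divided by the DESeq2 size factor of the library. Of 10 CAM markers, all were found in every group, and their summed level was 247266 to 277499 in vehicle tdT+, 284129 to 362409 in BLZ945 tdT+ and 106624 to 157603 in tdT− libraries. The summed level of 6 microglia markers was 81778 to 115136, 105119 to 110265 and 128399 to 251465 in the same order. The tdT− library F2 stood apart, with a sum of 422704 over 5 neutrophil markers against at most 69.4 in the other 11 libraries. It was also highest in the sum of 5 monocyte markers (51211 against at most 6650 elsewhere). Library names hold "pre" in vehicle and "Post" in BLZ945 mice, which the labels do not explain, and the batch label is the same for all 12 libraries. In bulk samples, a higher level in each cell and a larger share of cells with the transcript cannot be told apart.

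Levels of different genes were compared per kilobase of the gene length given in the table. Nrros had the highest level in all 3 groups, with 3911 ± 377 normalised reads per kilobase in vehicle tdT+, 4885 ± 325 in BLZ945 tdT+ and 3363 ± 700 in tdT− cells (SD, n = 4). Its level ranked at percentile 98.2, 98.7 and 97.97 of the genes tested. In vehicle tdT+ cells Tgfbr2 followed with 1820 ± 183, and then Tgfb1 with 1039 ± 54.7 and Tgfbr1 with 1006 ± 321, whose ranges overlapped. In BLZ945 tdT+ cells the order was Tgfbr2, Tgfbr1 and Tgfb1, and of these neighbours Tgfbr1 and Tgfb1 overlapped in range. In tdT− cells Tgfbr1 came second with 2488 ± 514, in a range that overlapped that of Nrros and lay apart from that of Tgfbr2 (1358 ± 181). The genes of the intracellular arm had lower means in every group, but in vehicle tdT+ libraries the ranges of Tgfbr1 and Ski overlapped. Ski and Smad4 overlapped each other everywhere and lay between 411.7 and 507 per kilobase on average. Smad2, Smad3, Skil and Smad7 had group means of at most 240.0 per kilobase. Smad7, the inhibitory Smad, was lowest in both tdT+ groups (25.1 ± 10.6 and 30.5 ± 14.7), whereas in tdT− cells the ranges of Smad2, Smad7 and Smad3 overlapped from neighbour to neighbour.

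**Figure D1:**
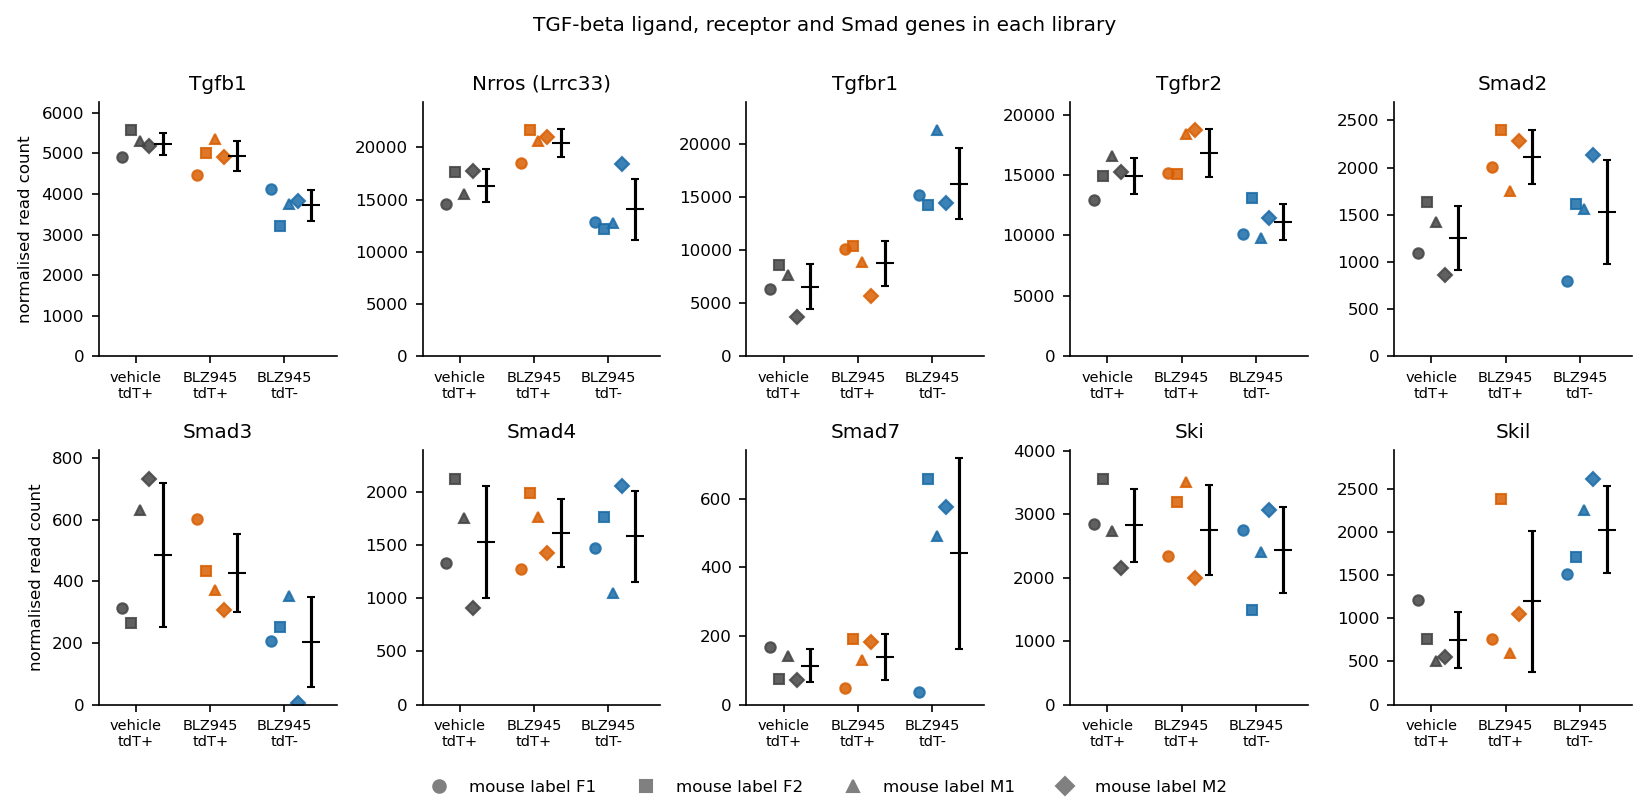
Normalised read count (y axis, from 0, different scale in each panel) of the 10 genes in each of the 12 libraries, by group (x axis). Symbols are libraries and their shape gives the mouse label, and the bars beside each group give mean and SD over 4 libraries. Each of the 4 tdT− libraries lay below each of the 4 BLZ945 tdT+ libraries for Tgfb1 and Tgfbr2 and above each of them for Tgfbr1.

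Of the 4 genes whose levels passed the test between tdT− and tdT+ cells of BLZ945 mice, 3 were lower (Tgfb1, Nrros and Tgfbr2) and 1 was higher (Tgfbr1). The 250 bases before the RefSeq start of each are shown here so that genes that moved together can be read side by side. They come from RefSeq on GRCm38.p6, whereas positions elsewhere in the text are those of the count table (GRCm39). The sequences run 5′ to 3′ on the strand of the gene, and capitals mark the motif CAGAC, the Smad-binding box with a flanking base, searched on both strands (CAGAC or GTCTG, which cannot overlap each other). The windows are Tgfb1 at chr7:25686752-25687001 (plus strand), Nrros at chr16:32165595-32165844 (minus strand), Tgfbr2 at chr9:116175364-116175613 (minus strand) and the upstream of the starts of Tgfbr1 at chr4:47352972-47353221 (plus strand).
Tgfb1: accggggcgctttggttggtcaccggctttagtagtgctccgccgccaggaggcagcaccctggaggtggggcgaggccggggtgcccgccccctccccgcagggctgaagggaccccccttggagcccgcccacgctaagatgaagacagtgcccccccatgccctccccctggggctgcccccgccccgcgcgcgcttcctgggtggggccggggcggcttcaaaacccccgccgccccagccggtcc
Nrros: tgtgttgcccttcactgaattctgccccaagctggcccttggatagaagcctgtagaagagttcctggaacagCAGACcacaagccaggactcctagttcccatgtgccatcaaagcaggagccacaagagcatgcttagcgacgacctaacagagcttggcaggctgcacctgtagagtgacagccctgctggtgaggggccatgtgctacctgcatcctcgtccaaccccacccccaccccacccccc
Tgfbr2: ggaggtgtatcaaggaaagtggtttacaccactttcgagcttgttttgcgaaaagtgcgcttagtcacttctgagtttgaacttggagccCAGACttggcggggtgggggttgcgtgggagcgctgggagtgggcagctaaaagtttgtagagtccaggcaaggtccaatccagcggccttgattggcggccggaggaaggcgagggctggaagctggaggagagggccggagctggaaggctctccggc
Tgfbr1: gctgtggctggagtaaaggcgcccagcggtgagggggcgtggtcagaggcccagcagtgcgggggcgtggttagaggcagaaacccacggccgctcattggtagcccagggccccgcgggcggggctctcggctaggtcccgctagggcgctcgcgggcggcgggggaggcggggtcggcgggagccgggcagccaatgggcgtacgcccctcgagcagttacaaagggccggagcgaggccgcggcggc

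The motif occurred 1 time each in the windows of Nrros (177 bases before the start) and Tgfbr2 (160 bases before it), and not in those of Tgfb1 and of the upstream start of Tgfbr1. A second RefSeq start of Tgfbr1 had 1 match, and Smad3 and Ski had 0, among the 6 genes with a window in the table. Of all 32851 windows, 42.2% held the motif in these 250 bases and 49.6% in the 300 bases that run 50 bases past the start. A match is a description of the letters and not a measured binding site.

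Setting tdT− beside tdT+ cells of BLZ945 mice addresses whether sdCAMs without and with the label differ within the same animals. DESeq2 called 4 of the 10 genes (adjusted p of at most 0.05), against 6.38% of all genes tested. Among all genes, 2.86% were called higher and 3.51% lower. None of the 10 genes also reached a shrunken log2 fold change of 1 in size, the additional criterion for a DEG, which 2.25% of all genes met. The 4 called genes were also those whose groups did not overlap, against 9.35% of all genes. The median shrunken log2 fold change over the 10 genes was −0.13, beside 0.00 over all genes tested. With edgeR 2 of the 10 genes were called (Tgfbr2 and Nrros), against 2.75% of all genes, and with the mouse as a block 3 were called (Tgfbr1, Tgfbr2 and Nrros), against 7.21%.

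**Figure D2:**
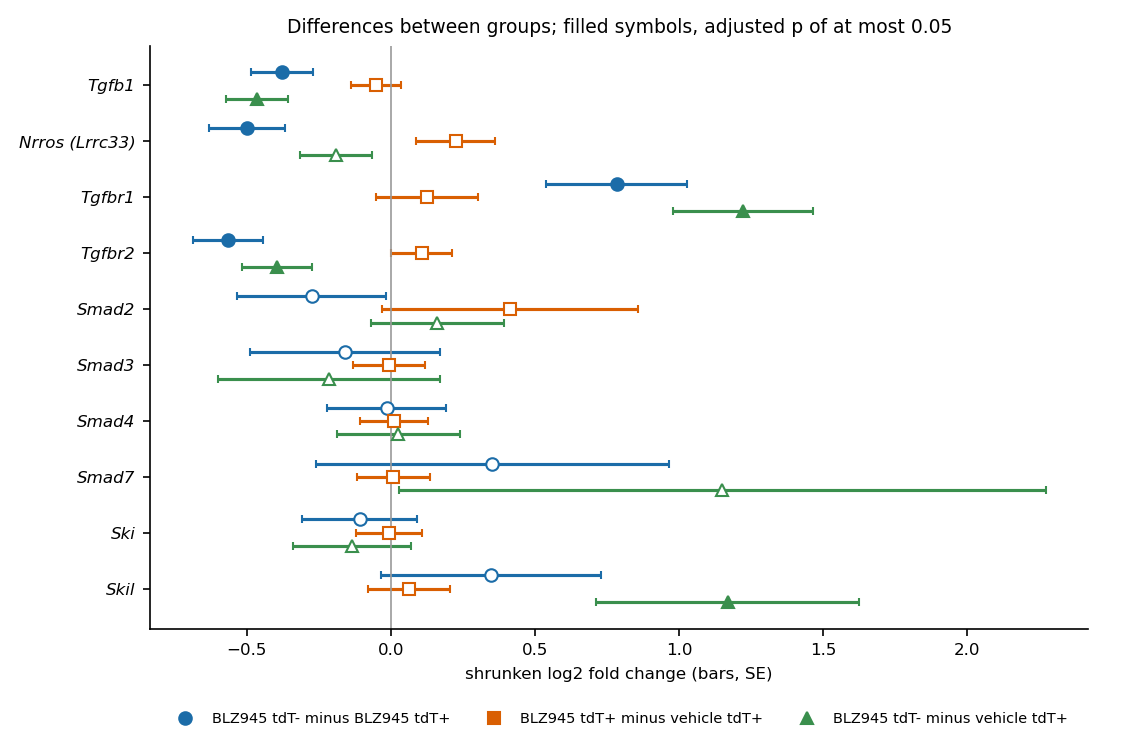
Shrunken log2 fold change (x axis) with its SE (bars) of the 10 genes in 3 comparisons, and filled symbols mark an adjusted p of at most 0.05. Tgfbr1 lay above 0 and Tgfb1 and Tgfbr2 below 0 in both comparisons of tdT− cells, and no symbol of the comparison between the tdT+ groups is filled.

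Tgfb1 (chromosome 7, 25386427 to 25404502, plus strand), the gene of the ligand, was lower in tdT− cells than in either tdT+ group. Vehicle tdT+ libraries F1, F2, M1 and M2 held 4900.4, 5566, 5301 and 5182 normalised counts. BLZ945 tdT+ libraries held 4467, 5019, 5346 and 4911, and tdT− libraries 4125, 3209.5, 3747 and 3832, in the same order. All 4 tdT− libraries were below all 8 tdT+ libraries. The level fell from 4936 ± 363 in BLZ945 tdT+ to 3728 ± 382 in tdT− cells (SD, n = 4). The log2 fold change was −0.38 ± 0.11 (SE) with an adjusted p of 0.00461, and the level was lower in 4 of 4 mice. With the mouse as a block in this paired comparison the log2 fold change was −0.36 with an adjusted p of 0.0761, and with edgeR the adjusted p was 0.0522, so this call depended on the test. Against vehicle (5237 ± 276) the log2 fold change was −0.46 ± 0.11 (adjusted p = 2.11e-04). Without the tdT− library F2 both differences remained called, with adjusted p of 0.0119 and 5.77e-04. Between the tdT+ groups the log2 fold change was −0.05 ± 0.09 (adjusted p = 0.9997). Over 19 alternatives (other tests, filters, terms and left-out libraries) the adjusted p lay between 6.73e-04 and 0.0761 against BLZ945 tdT+ and between 1.28e-05 and 0.0288 against vehicle.

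Nrros (chromosome 16, 31961603 to 31984412, minus strand), the gene of the anchor LRRC33, held 14543, 17622, 15484 and 17689 normalised counts in vehicle tdT+ libraries. It held 18467, 21608, 20579.5 and 20959.6 in BLZ945 tdT+ and 12814, 12176, 12793 and 18410 in tdT− libraries. The tdT− library M2 lay far above the other 3 and only just below the lowest BLZ945 tdT+ library. The level fell from 20404 ± 1359 in BLZ945 tdT+ to 14048 ± 2923 in tdT− cells, by −0.50 ± 0.13 on the log2 scale (adjusted p = 0.00141), and it was lower in 4 of 4 mice. Without the tdT− library F2 the log2 fold change was −0.44 (adjusted p = 0.00814). Against vehicle (16334 ± 1573) tdT− cells did not pass the test (−0.19 ± 0.12, adjusted p = 0.442), but they did without the tdT− library M2 (adjusted p = 0.00285). BLZ945 tdT+ libraries were all above vehicle libraries, with a log2 fold change of 0.23 ± 0.14 that did not pass (adjusted p = 0.355). That difference passed when only these groups were fitted (adjusted p = 0.0256), with the mouse label as a block (0.00128) and without the tdT− library M2 (0.0395). Across the 19 alternatives its adjusted p ranged from 1.67e-10 to 0.0385 against BLZ945 tdT+, from 0.00285 to 0.686 against vehicle and from 0.00128 to 0.736 between the tdT+ groups.

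Tgfbr1 (chromosome 4, 47353222 to 47414931, plus strand), the gene of the signalling receptor, showed the largest difference in counts among the 10 genes. Vehicle tdT+ libraries held 6327, 8582, 7621 and 3751 normalised counts, BLZ945 tdT+ libraries 10075, 10342, 8894 and 5694, and tdT− libraries 15158, 14226, 21261 and 14386. Every tdT− library was above every tdT+ library, and the library M2 was lowest in both tdT+ groups. The level rose from 8751 ± 2133 in BLZ945 tdT+ to 16258 ± 3360 in tdT− cells, a ratio of 1.86 and a log2 fold change of 0.78 ± 0.25 (adjusted p = 0.00441), and it was higher in 4 of 4 mice. The adjusted p was 2.83e-05 with the mouse as a block and 0.0914 with edgeR. Against vehicle (6570.2 ± 2095) the ratio was 2.47 and the log2 fold change 1.22 ± 0.24 (adjusted p = 2.11e-06), which made Tgfbr1 a DEG. Without the tdT− library F2 the log2 fold changes were 0.83 (adjusted p = 0.00531) and 1.27 (6.27e-06). The tdT+ groups overlapped and their difference did not pass (0.13 ± 0.18, adjusted p = 0.748, and 0.0182 with the label as a block). For Tgfbr1 the alternatives spanned adjusted p from 2.83e-05 to 0.0914 against BLZ945 tdT+, from 1.35e-09 to 0.0124 against vehicle and from 0.0182 to 0.9999 between the tdT+ groups.

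Between groups, Tgfbr1 moved in the same direction as most markers of microglia, which express this receptor. Tgfbr2, Nrros and Tgfb1 moved opposite to these markers against BLZ945 tdT+ cells (log2 fold changes of −0.56, −0.50 and −0.38). Of the 6 markers, 5 were called higher in tdT− cells in both comparisons (P2ry12, Tmem119, Sall1, Siglech and Slc2a5), whereas Fcrls was not called (log2 fold change −0.23 ± 0.12, adjusted p = 0.230, against BLZ945 tdT+). P2ry12, the purinergic receptor of microglial processes, held 42296, 44758, 106728 and 67976 normalised counts in the tdT− libraries F1, F2, M1 and M2, against 13222 to 23924 in the 8 tdT+ libraries. The tdT− library M1 had both the highest marker sum (251465) and the highest Tgfbr1 count (21261). In the other 3 tdT− libraries the sum was 139846, 128399 and 189768 (F1, F2 and M2), beside Tgfbr1 counts of 15158, 14226 and 14386. In BLZ945 tdT+ libraries the sum lay between 105119 and 110265, beside Tgfbr1 counts between 5694 and 10342. Among vehicle tdT+ libraries, M2 was lowest in both the sum (81778) and Tgfbr1 (3751). No defining marker of microglia was at 0 in any group, and the part of microglial transcripts in the difference of Tgfbr1 was not tested. The CAM markers moved the other way, with 9 of 10 called lower and 0 higher in tdT− cells in both comparisons.

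Monocyte markers also moved with the tdT− group. The summed level of 5 markers was 1549 to 3885 in vehicle tdT+ and 901 to 1981 in BLZ945 tdT+ libraries, against 3076 to 6650 in 3 tdT− libraries and 51211 in the tdT− library F2. Of the 4 markers that passed the filter, Ccr2 and Ly6c2 were called higher against BLZ945 tdT+ cells, and Ccr2 was also called higher against vehicle. Ccr2, the chemokine receptor of classical monocytes, held 6288, 12013, 5226 and 3076 normalised counts in tdT− libraries, 847 to 1981 in BLZ945 tdT+ and 1476 to 3852 in vehicle libraries. Without the tdT− library F2 the log2 fold change of Ccr2 was 1.86 (adjusted p = 3.70e-06) against BLZ945 tdT+ and 0.53 (0.186) against vehicle cells, where the call was lost. Among tdT− libraries, Ly6c2 had counts in F1 and F2 and Chil3 in F2 only. The part of monocyte transcripts in the differences of the 10 genes was not tested.

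**Figure D3:**
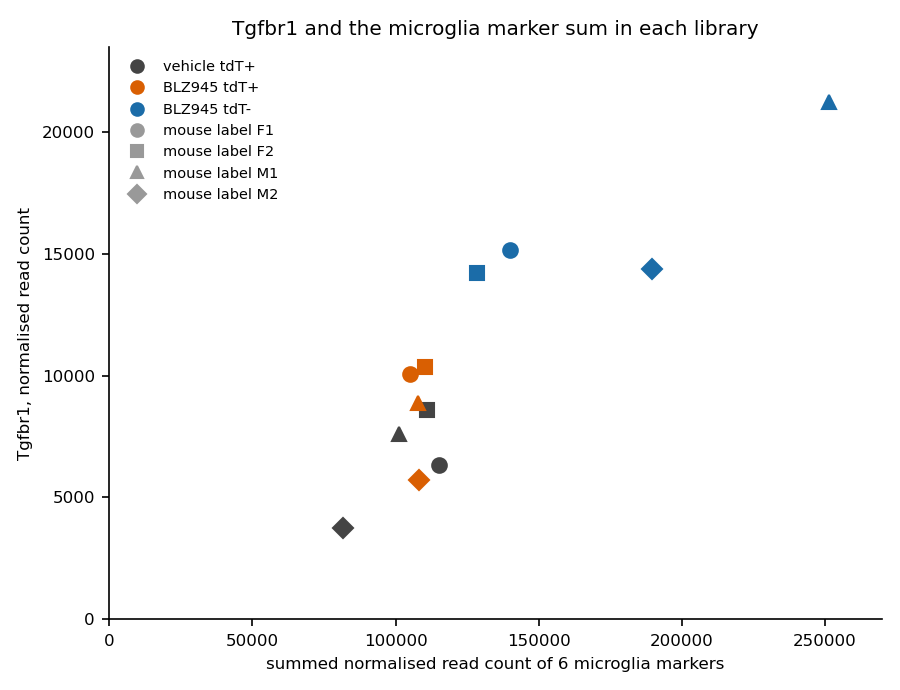
Normalised read count of Tgfbr1 (y axis) against the summed normalised read count of 6 microglia markers (x axis) in each of the 12 libraries, with colour for group and shape for mouse label. The 4 tdT− libraries lie above all tdT+ libraries on both axes, and the tdT− library M1 is highest on both. In tdT+ libraries most of the sum is Fcrls, which was not higher in tdT− cells.

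Tgfbr2 (chromosome 9, 115913361 to 116004428, minus strand), the gene of the ligand-binding receptor, moved opposite to Tgfbr1. Vehicle tdT+ libraries held 12934, 14894, 16556 and 15205 normalised counts, BLZ945 tdT+ libraries 15124, 15121, 18426 and 18683, and tdT− libraries 10154, 13086, 9825 and 11410.5. All tdT− libraries were below all BLZ945 tdT+ libraries, whereas the tdT− library F2 was above the vehicle library F1. The level fell from 16839 ± 1984 to 11119 ± 1479 between tdT+ and tdT− cells of BLZ945 mice, a log2 fold change of −0.56 ± 0.12 (adjusted p = 4.50e-05), lower in 4 of 4 mice. This was the call among the 10 genes with the smallest adjusted p in the comparison, and without the tdT− library F2 the log2 fold change was −0.66 (adjusted p = 3.54e-07, in a range of 3.54e-07 to 0.0136 over the alternatives). Against vehicle (14897 ± 1495) the log2 fold change was −0.39 ± 0.12 (adjusted p = 0.0118), a call that was lost with edgeR (0.0648) and without the vehicle library M1 (0.0806), the tdT− library F1 (0.0519) or the tdT− library M1 (0.0501) but not without F2 (4.26e-04), in a range of 4.26e-04 to 0.0806 over the alternatives. The tdT+ groups differed by 0.11 ± 0.11 (adjusted p = 0.885).

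Per kilobase, Tgfbr2 stood above Tgfbr1 in every tdT+ library and below it in every tdT− library. The ratio of Tgfbr2 to Tgfbr1 was 1.63, 1.39, 1.73 and 3.24 in vehicle tdT+ libraries F1, F2, M1 and M2. It was 1.198, 1.17, 1.65 and 2.62 in BLZ945 tdT+ and 0.535, 0.734, 0.369 and 0.633 in tdT− libraries. In each BLZ945 mouse the tdT+ cells had a ratio above 1 and the tdT− cells a ratio below 1. The ratio was formed after both genes had been seen to differ and was not tested.

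**Figure D4:**
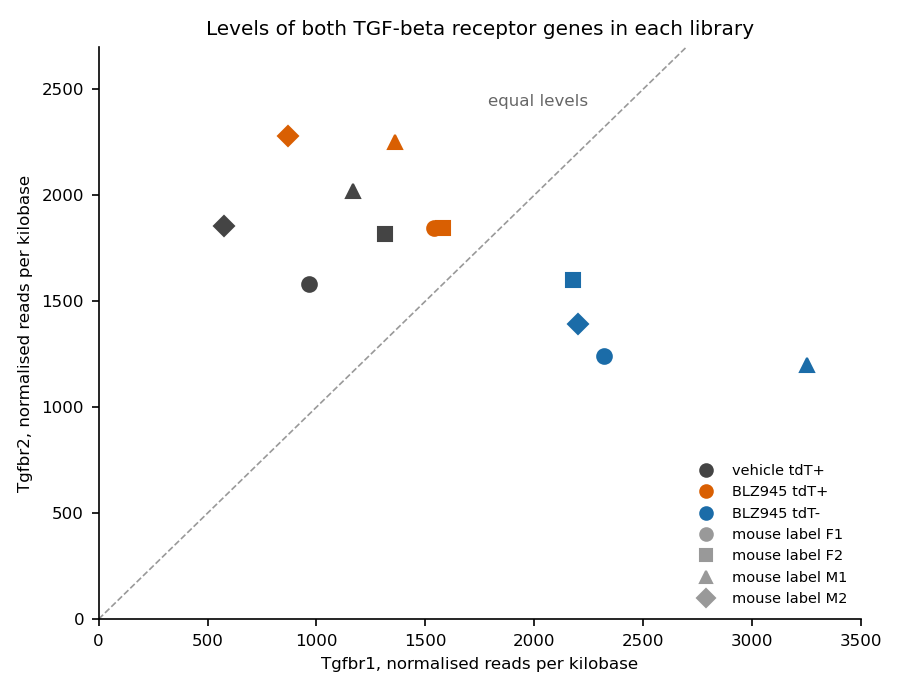
Normalised reads per kilobase of Tgfbr2 (y axis) against Tgfbr1 (x axis) in each of the 12 libraries, with colour for group, shape for mouse label and a dashed line where both are equal. All 8 tdT+ libraries lie above the line and all 4 tdT− libraries below it.

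None of the 4 Smad genes was called in any comparison, at levels far below those of the receptors. Smad2, a receptor-regulated Smad, held 1093, 1640, 1419.7 and 866 normalised counts in vehicle tdT+, 2007, 2393, 1755 and 2276 in BLZ945 tdT+, and 801, 1618, 1564 and 2137 in tdT− libraries. The BLZ945 tdT+ libraries were all above the vehicle libraries (2107 ± 285 against 1255 ± 343, log2 fold change 0.41 ± 0.44, adjusted p = 0.295). This difference passed when only these groups were fitted (adjusted p = 0.0449) and with the label as a block (0.0405), in a range of 0.0405 to 0.693 over the alternatives. Between tdT− and tdT+ cells of BLZ945 mice it was lower in 4 of 4 mice, with a log2 fold change of −0.27 ± 0.26 (adjusted p = 0.487).

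Smad3, the other receptor-regulated Smad, held 313, 263, 631 and 733 normalised counts in vehicle tdT+, 602, 432, 370.2 and 305 in BLZ945 tdT+, and 207, 250.4, 351 and 5.74 in tdT− libraries. The tdT− library M2 was nearly empty of Smad3, with 6 counts before normalisation. The tdT− libraries F1 and F2 were also below every tdT+ library, and only M1 lay within the ranges of both tdT+ groups. The level was lower in tdT− cells of 4 of 4 mice (203 ± 145 against 427 ± 127, log2 fold change −0.16 ± 0.33, adjusted p = 0.564). Against vehicle (485 ± 232) the log2 fold change was −0.22 ± 0.38 (adjusted p = 0.425), and between the tdT+ groups it was −0.01 ± 0.13 (adjusted p = 0.9997).

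Smad4, the common partner Smad, lay between 904 and 2125 normalised counts in vehicle tdT+, 1277 and 1991 in BLZ945 tdT+ and 1047 and 2052 in tdT− libraries, and the groups overlapped. Its log2 fold changes were −0.01 ± 0.21 between tdT− and tdT+ cells of BLZ945 mice, 0.01 ± 0.12 between the tdT+ groups and 0.03 ± 0.21 between tdT− and vehicle cells. Smad7, the inhibitory Smad and itself a target of the pathway, held 166, 73.3, 142 and 72.1 normalised counts in vehicle tdT+, 47.9, 192, 129 and 184 in BLZ945 tdT+, and 35.5, 658, 491 and 577 in tdT− libraries. In 3 of the 4 tdT− libraries the count was above that of every tdT+ library, and in the tdT− library F1 it was below that of every tdT+ library. The difference did not pass against BLZ945 tdT+ (440 ± 278 against 138 ± 66.2, log2 fold change 0.35 ± 0.61, adjusted p = 0.178) or vehicle (113 ± 48.1, 1.15 ± 1.12, adjusted p = 0.0838). Without the tdT− library F1 the adjusted p was 0.00453 and 7.44e-04, the lowest of the alternatives, whose highest were 0.384 and 0.248. None of the 4 Smad genes was called without the tdT− library F2 either. Smad2, Smad4 and Smad7 lie on chromosome 18 and Smad3 on chromosome 9 (63554049 to 63665276, minus strand).

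Ski (chromosome 4, 155238532 to 155307049, minus strand) lay between 2158 and 3558 normalised counts in vehicle tdT+, 1987 and 3504 in BLZ945 tdT+ and 1495 and 3059 in tdT− libraries. The groups overlapped, and the log2 fold changes were −0.11 ± 0.20, −0.01 ± 0.11 and −0.13 ± 0.21 in the order given for Smad4, without a call, also without the tdT− library F2. Skil (chromosome 3, 31149207 to 31176726, plus strand), the gene of the related corepressor SnoN, held 1210.1, 755, 499 and 547 normalised counts in vehicle tdT+ libraries. It held 755, 2383, 595 and 1048 in BLZ945 tdT+ and 1514, 1712, 2251 and 2617 in tdT− libraries. All tdT− libraries were above all vehicle libraries, whereas the BLZ945 tdT+ library F2 reached into the range of tdT− cells. Skil rose from 753 ± 325 in vehicle to 2023 ± 504 in tdT− cells, a ratio of 2.69 and a log2 fold change of 1.17 ± 0.46 (adjusted p = 0.0129, and 0.0187 without the tdT− library F2), and was a DEG. The call was lost with edgeR (0.101) and without the vehicle library M1 (0.0696), the vehicle library M2 (0.0633) or the tdT− library M2 (0.0642), in a range of 5.26e-04 to 0.101 over the alternatives. Against BLZ945 tdT+ cells (1195 ± 814) Skil did not pass (0.35 ± 0.38, adjusted p = 0.369), but it did without the BLZ945 tdT+ library F2 (adjusted p = 0.00469), in a range of 0.00469 to 0.702.

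The comparison of tdT+ cells between BLZ945 and vehicle mice addresses whether labelled cells differ between treated and untreated brains. None of the 10 genes was called by DESeq2 (2 with an unadjusted p under 0.05) or by edgeR (also 2). Of all genes tested, 0.0656% were called by edgeR and 0.955% by DESeq2, 0.481% higher and 0.474% lower, and 0.168% were DEGs. In 2 of the 10 genes (Smad2 and Nrros) the groups did not overlap, as in 6.72% of all genes. With the label as a block 3 of the 10 genes were called (Tgfbr1, Smad2 and Nrros, all higher in BLZ945 tdT+ cells), while the share of all genes called rose to 2.83%, and the labels are only shared names between these animals. In the fit of only these groups 2 of the 10 genes were called, against 2.37% of all genes.

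Between tdT− and vehicle tdT+ cells, 4 of the 10 genes were called, against 6.76% of all genes tested, and with edgeR 2 (Tgfb1 and Tgfbr1), against 3.25%. With DESeq2, Tgfbr1 and Skil were higher (3.27% of all genes) and Tgfb1 and Tgfbr2 lower (3.49%). Tgfbr1 and Skil were DEGs, against 2.55% of all genes, and in Tgfb1, Tgfbr1 and Skil the groups did not overlap, as in 9.70% of all genes. Since each pair of comparisons shares a group of libraries, their values are set side by side and do not support each other. For Tgfb1, Tgfbr1, Tgfbr2 and Nrros the log2 fold changes were −0.38, 0.78, −0.56 and −0.50 against BLZ945 tdT+ and −0.46, 1.22, −0.39 and −0.19 against vehicle cells.

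The wider pathway was described with 5 lists of 125 other genes, of which 100 passed the filter. In tdT− against tdT+ cells of BLZ945 mice 19 were higher, 11 lower and 70 not called, and 16 were DEGs. Between tdT− and vehicle cells 21 were higher, 11 lower and 68 not called, and 16 were DEGs. Between the tdT+ groups 2 were higher, 3 lower and 95 not called, and 1 was a DEG. Over all genes tested, 6.38%, 6.76% and 0.955% were called and 2.25%, 2.55% and 0.168% were DEGs, in the same order of comparisons. The calls were spread unevenly over the lists. When the tdT− library F2 was left out, 28 of the 30 calls against BLZ945 tdT+ remained (Cdkn1a and Csf1r were lost, with adjusted p of 0.0591 and 0.0624). Against vehicle 31 of the 32 remained (Nrp1 was lost, 0.0516), and Col1a1, P2ry13 and Pros1 were gained. No called gene turned its direction.

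**Figure D5:**
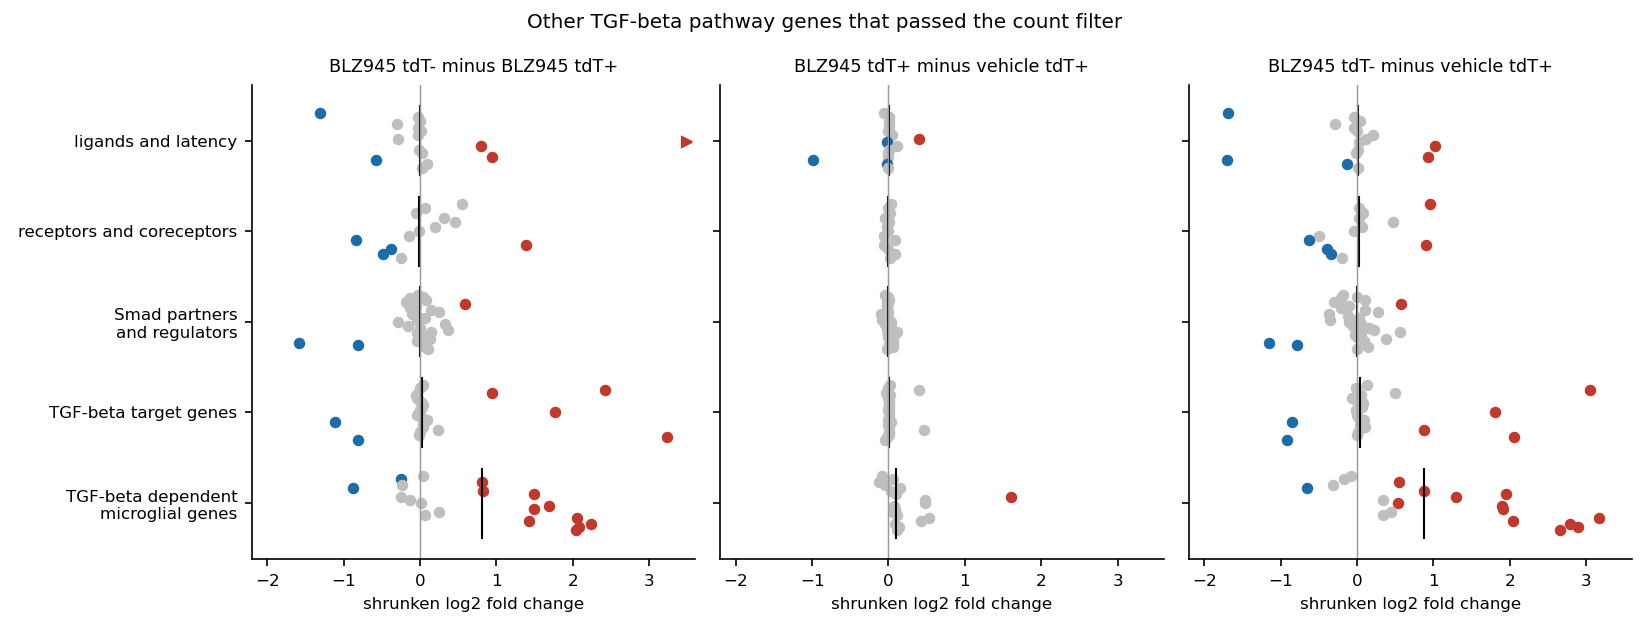
Shrunken log2 fold change (x axis) of the 100 pathway genes that passed the filter, in 5 lists (y axis) and 3 comparisons (panels). Points are genes, red where called higher, blue where called lower and grey where not called, the vertical bars are list medians, and the arrowhead at the right edge is Itgb3, which had 0 counts in all BLZ945 tdT+ libraries. The list of TGF-beta dependent microglial genes has its median at 0.81 and 0.87 in the comparisons of tdT− cells.

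Of 27 listed genes of ligands and latency, 16 passed the filter, with 3 higher and 2 lower in tdT− than in BLZ945 tdT+ cells. Itgb5, the beta subunit of an integrin that activates latent TGF-beta, was higher (28635 ± 6518 against 15905 ± 1281, log2 fold change 0.80 ± 0.15, adjusted p = 1.36e-06). Mmp14, a membrane-bound metalloproteinase, was also higher (2028 ± 396 against 959 ± 218, 0.95 ± 0.29, adjusted p = 0.00283). Itgb3, a further integrin beta subunit, had 0 counts in all 4 BLZ945 tdT+ libraries and 94.0 ± 33.1 normalised counts in tdT− cells. No fold is derived from these counts, since reads are not independent molecules and a count of 0 does not bound the level. Vehicle tdT+ libraries held 64.5 ± 66.6 (0 to 130.7), which spans the range in tdT− cells (57.4 to 125.2), and Itgb3 was not called between these groups. Within BLZ945 mice its shrunken estimate dropped from 9.70 ± 3.13 to 0.12 ± 0.34 (SE) once the tdT− library F2 was left out. It was still called there (adjusted p = 3.32e-04). Bmp2, a ligand of the related BMP branch, was lower (495 ± 155 against 1337 ± 336, −1.31 ± 0.31, adjusted p = 6.00e-05), as was the metalloproteinase gene Mmp9 (4205 ± 1047 against 6727 ± 747, −0.58 ± 0.21, adjusted p = 0.0217). Against vehicle (14155 ± 4159) Mmp9 was lower both in tdT− cells (−1.70 ± 0.21, adjusted p = 9.86e-15) and in BLZ945 tdT+ cells (−0.98 ± 0.22, adjusted p = 9.35e-05). The second ligand gene, Tgfb2, held 40.6 to 207.8 normalised counts in vehicle tdT+ libraries. It had 0 counts in all 4 BLZ945 tdT+ libraries and 4.55 ± 7.16 normalised counts in tdT− cells. Tgfb2 passed the filter only through the vehicle libraries, so its difference between groups is a description. Itgb3 and Tgfb2 were named after their values were seen, since their means are below the minimum of 100 normalised counts for naming. Of this list, Itgb1, a common integrin beta subunit, was the only gene called higher between the tdT+ groups (14512 ± 587 against 10613 ± 648, 0.40 ± 0.12, adjusted p = 0.00916).

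Of 17 receptor and coreceptor genes, 13 passed the filter, with 1 higher and 3 lower in tdT− than in BLZ945 tdT+ cells. Eng, the gene of the coreceptor endoglin, was higher (809 ± 125 against 281 ± 56.2, 1.39 ± 0.34, adjusted p = 1.09e-04). Dab2, an adaptor of receptor endocytosis (33727 ± 10545 against 63138 ± 10941, −0.84 ± 0.19, adjusted p = 3.79e-05), Nrp1, a coreceptor (13447 ± 2087 against 19102 ± 1413, −0.48 ± 0.11, adjusted p = 1.49e-04), and Fkbp1a, whose product FKBP12 holds TGFBR1 inactive (6795 ± 1059 against 9008 ± 234, −0.38 ± 0.11, adjusted p = 0.00856), were lower. Against vehicle the same 4 genes were called in the same directions, and Acvr1, a type I receptor of the BMP branch, was called higher as well (631 ± 348 against 263 ± 65.7, 0.96 ± 0.47, adjusted p = 0.0394). Between the tdT+ groups 0 genes of this list were called, by DESeq2 or by edgeR, and 0 had an unadjusted p under 0.05 with either.

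Of 32 listed Smad partners and regulators 29 passed the filter and 26 of these were not called between tdT− and tdT+ cells of BLZ945 mice. Pmepa1, a target gene whose product restrains Smad signalling, was higher in tdT− cells (9089 ± 835 against 5641 ± 1837, 0.59 ± 0.21, adjusted p = 0.0143). Usp9x, a deubiquitinase that acts on SMAD4 (289.8 ± 94.3 against 954 ± 182, −1.58 ± 0.35, adjusted p = 2.21e-05), and Wwp1, a ubiquitin ligase of Smads and TGFBR1 (2818 ± 581 against 5193 ± 734, −0.81 ± 0.19, adjusted p = 1.03e-04), were lower. The same 3 genes were called in the same directions against vehicle. Between the tdT+ groups 0 genes of the list were called by DESeq2 (1 with an unadjusted p under 0.05) and 0 by edgeR (0).

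Of 30 listed target genes 23 passed the filter, with 4 higher and 2 lower in tdT− than in BLZ945 tdT+ cells. Cd9, a tetraspanin gene, was higher (21769 ± 6543 against 3954 ± 831, 2.41 ± 0.23, adjusted p = 9.17e-24), as were Spp1 (osteopontin, 3446 ± 2058 against 275 ± 241, 3.23 ± 0.90, adjusted p = 5.04e-04) and Id2 (1856 ± 491 against 512 ± 90.3, 1.77 ± 0.30, adjusted p = 2.42e-08), an inhibitor of bHLH factors. Cdkn1a, the gene of the cell cycle inhibitor p21, was higher too (696 ± 219 against 294 ± 128, 0.95 ± 0.46, adjusted p = 0.0382). Tgfbi, a matrix protein gene named for its induction by TGF-beta (15503 ± 2471 against 27857 ± 3731, −0.81 ± 0.13, adjusted p = 2.15e-08), and Klf10, the TGF-beta inducible early gene (845 ± 310 against 2099 ± 1132, −1.12 ± 0.38, adjusted p = 0.00490), were lower. Members of the list were thus called in both directions, and against vehicle the count was again 4 higher and 2 lower, with Rhob, a small GTPase gene (4635 ± 636 against 2385 ± 613, 0.87 ± 0.22, adjusted p = 2.78e-04), in place of Cdkn1a among those higher. Between the tdT+ groups 0 genes of the list were called by either tool, and 2 had an unadjusted p under 0.05 with each.

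All 19 genes listed as dependent on TGF-beta in microglia passed the filter, and 12 of them (63.2%) were called between tdT− and tdT+ cells of BLZ945 mice, 10 higher and 2 lower. The share called over all genes tested was 6.38%. The largest differences were those of Slc2a5, a fructose transporter gene (6166 ± 2917 against 1234 ± 65.6, 2.23 ± 0.34, adjusted p = 4.98e-10), Sparc, a matrix protein gene (31928 ± 14832 against 6986 ± 1378, 2.08 ± 0.36, adjusted p = 2.98e-08), Sall1, a transcription factor gene of microglial identity (2115 ± 791 against 461 ± 228, 2.05 ± 0.41, adjusted p = 1.53e-06), and Tmem119 (28322 ± 11095 against 6433 ± 1348, 2.04 ± 0.33, adjusted p = 4.24e-09). Olfml3, P2ry12 and Siglech were also DEGs, with log2 fold changes of 1.69, 1.49 and 1.43. Gas6, a ligand of the phagocytic TAM receptors (19252 ± 3008 against 35724 ± 2621, −0.88 ± 0.11, adjusted p = 2.62e-14), and Csf1r (141088 ± 14310 against 169217 ± 4340, −0.25 ± 0.08, adjusted p = 0.0341), the receptor that BLZ945 inhibits, were lower. Against vehicle 13 genes were called, 12 higher and 1 lower, beside 6.76% of all genes tested. The list holds all 6 microglia markers given above, and of the other 13 genes 5 were higher and 2 lower against BLZ945 tdT+ cells and 7 higher and 1 lower against vehicle. Jun, an AP-1 subunit gene, was the only call of this list between the tdT+ groups, where it was higher in BLZ945 tdT+ cells (8594 ± 1868 against 2760.4 ± 453, 1.61 ± 0.17, adjusted p = 1.45e-19). How far the higher level of the list stems from microglia in the tdT− gate was not tested.

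Across the 12 libraries, the genes with the pattern most like that of Tgfb1 were Fam43a, Arhgap19 and Fpr1, with Pearson's r of log2(normalised count + 1) of 0.962, 0.958 and 0.955. For Tgfbr1 they were Vsir, Golm1 and Itgb2 (0.950, 0.948 and 0.939), and for Tgfbr2 Qki, Mrc1 and Rab11fip5 (0.939, 0.930 and 0.906). These are the 3 highest of 3537 genes whose mean reached 1000 normalised counts, and the libraries share the grouping into 3 groups, so the values describe likeness of pattern only. Mrc1 is the gene of CD206, the marker of the sort and the locus of the Cre, and its level was lower in tdT− (3318 ± 749) than in BLZ945 tdT+ (9710.5 ± 1929) and vehicle (7614 ± 1256) cells.

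The difference between tdT− and tdT+ cells of BLZ945 mice was also compared between mice labelled F and M. No gene of the 13724 tested had an interaction that passed with edgeR, in which 836 had an unadjusted p under 0.05, and 0 of the 10 genes reached that. With DESeq2 396 genes were called and 1633 had an unadjusted p under 0.05, and of the 10 genes 0 were called and 3 had an unadjusted p under 0.05 (Tgfbr1, Tgfbr2 and Skil, with adjusted p of 0.272, 0.381 and 0.290).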

How the data were processed

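Bulk RNA-seq counts of 12 libraries (3 groups of 4, from 4 vehicle and 4 BLZ945 mice) were analysed. Per the labels, about 500 pg of RNA per library was amplified with a SMART-Seq kit, reads were demultiplexed with bcl2fastq 2.20 and aligned with STAR 2.7.11a. Per the file headers, the authors counted exons of a filtered GENCODE M33 annotation (GRCm39) with tdTomato added, using featureCounts 2.0.6 without strand and without multi-mapping reads. The deposited values are raw counts per gene name, and the deposited gene lengths are those of the merged exons. The reads were not counted by molecule, so reads are not independent molecules. The tdTomato entry had 0 counts in all libraries and could not check the sort. None of the 10 genes shares exon bases with another gene of the table. A vehicle column that carries the label M1 was assigned by its library number to the mouse labelled M2.

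The filter dropped a gene where 9 of 12 libraries or more (75%) had under 10 counts, which left 13724. DESeq2 1.42.0 in R 4.3.3 was fitted with group as the only term to all 12 libraries (Wald test, two-sided, with size factors by the median of ratios and Benjamini-Hochberg adjustment over all genes tested), and fold changes were shrunken on the log2 scale by apeglm 1.24.0. A gene was called at an adjusted p of at most 0.05, and was a DEG where its shrunken log2 fold change also reached 1 in size. The interaction of the letter F or M with the difference between tdT− and tdT+ cells was tested with edgeR in the 8 BLZ945 libraries, with DESeq2 as an alternative. Scripts were tested on simulated data. Tables were handled in Python 3.11.15 with pandas 2.3.3. Replicates were separate mice, and the closest of 18 replicate pairs differed beyond sampling noise (chi-square per degree of freedom of 45.6). Pairs of tdT− libraries lay between 102.8 and 175.9 on this measure, and pairs within the tdT+ groups between 45.6 and 75.6. The main fit used a shared estimate of the spread for all 3 groups, and the part of the unequal spread in the calls was not tested.

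All 10 genes were named in each comparison. Of the pathway lists, DEGs were named, and then the called genes with the largest and smallest log2 fold change, at most 6 in each direction, if their mean reached 100 normalised counts. Some genes of the lists are not reported here. Further called genes of lists with few calls were named after their values had been seen. The 10 genes, the lists and the markers were chosen with earlier results of these data known, so their counts are descriptions.

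Alternatives were edgeR 4.0.16 (quasi-likelihood test with TMM), TMM factors inside DESeq2, no filter, a mean of at least 100 counts, only the groups compared, the mouse label as a replicate block, the letter of the label as a covariate and leaving out each library. The pairing of tdT+ and tdT− libraries by mouse comes from the labels. Across genes, the deviations from group means of both libraries of a mouse correlated with r between −0.0046 and 0.0352.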

Additional observations from a re-analysis of the deposited data

Results flagged for a closer look

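In each group of 4 libraries, the highest and lowest value of each of the 10 genes was compared with its nearest neighbour, as the gap divided by the range of the group (Dixon's test). Among 30 groups tested, 2 values exceeded the 95% critical value, and chance alone flags about 1 in 20 groups, or 1.5 of 30. Tgfbr1 in the tdT− library M1 held 21261 normalised counts against 14226 to 15158 in the other 3 (gap of 0.868 of the range), and the sum of microglia markers was also highest in that library. Without it the log2 fold change of Tgfbr1 was 0.61 (adjusted p = 0.0371) against BLZ945 tdT+ and 1.06 (1.14e-04) against vehicle cells. Nrros in the tdT− library M2 held 18410 normalised counts against 12176 to 12814 in the other 3 (gap of 0.898). Without it the log2 fold change of Nrros was −0.67 (adjusted p = 1.67e-10) against BLZ945 tdT+ and −0.36 (0.00285) against vehicle cells. The differences between mice labelled F and M did not pass the test for any of the 10 genes.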

How the results depend on the processing

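Each difference of the 10 genes was recomputed under 19 alternatives in each comparison. In tdT− against tdT+ cells of BLZ945 mice, Tgfbr2 and Nrros were called in all 19, Tgfbr1 in 18 and Tgfb1 in 17. Against vehicle, Tgfb1 and Tgfbr1 were called in all 19 and Tgfbr2 and Skil in 15 each. With edgeR 2 of the 10 genes were called in each of these comparisons, against 2.75% and 3.25% of all genes (6.38% and 6.76% with DESeq2), and with the DEG criterion 0 and 2. Between the tdT+ groups the count of 0 rose to 2 when only these groups were fitted and to 3 with the mouse label as a replicate block, while the share of all genes called rose from 0.955% to 2.37% and 2.83%. The causes were not tested. Leaving out each library gave 4 to 5 calls between tdT− and tdT+ cells of BLZ945 mice, 0 to 1 between the tdT+ groups (1 without the tdT− library M2) and 2 to 4 against vehicle (2 without the vehicle library M1). Of the other pathway genes, the DEG criterion kept 16 of 30, 1 of 5 and 16 of 32 calls in the order tdT− against BLZ945 tdT+, BLZ945 tdT+ against vehicle and tdT− against vehicle. For the second of these, edgeR gave 1 call, the fit of only these groups 10, the replicate block 14 and leaving out libraries 4 to 8 (8 without the vehicle library F2). Leaving out libraries gave 26 to 32 calls in the first and 26 to 34 in the third.

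The replicate block, which pairs libraries of the same mouse between tdT− and tdT+ cells, left 3 of 10 genes called (Tgfb1 lost), against 7.21% of all genes, and 31 of the other pathway genes. It changed no other call of the 10 genes in that comparison. Signs turned when a library was left out for uncalled differences near 0. These were Smad4, with log2 fold changes between −0.092 and 0.067 (tdT− against BLZ945 tdT+), −0.014 and 0.056 (tdT+ groups) and −0.078 and 0.13 (tdT− against vehicle), and, between the tdT+ groups, Smad3 (−0.016 to 0.0017) and Ski (−0.026 to 0.018). Levels per kilobase moved by less than 1 SD with TMM scaling. Leaving out a library could not decide this, since leaving out 1 value cannot shift a group mean by 1 SD. Totals of Smad3 and Smad7 were between 6 and 813 counts per library, and the part of depth in their spread was not tested.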
